A study of Mus musculus with 12 samples.

Results

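Arterial endothelial cells of the mouse aorta were described from 4 single-cell RNA libraries, 1 for each of the groups labelled Healthy, AS, MTZ-treated and MTZ-preventive. The cells were chosen by their own counts of unique molecular identifiers (UMIs). A barcode needed more than 200 genes, more than 1000 UMIs and less than 10% mitochondrial UMIs. It also needed at least 2 of the 6 endothelial genes Pecam1, Cdh5, Cldn5, Egfl7, Eng and Mmrn2, and no UMI of Ptprc, the leukocyte antigen CD45, or of Prox1, the lymphatic transcription factor. Among these endothelial barcodes, a cell was called arterial where Gkn3, Gja5, Bmp6 and Ptprr summed to at least 2 UMIs and to more than each of 2 opposing sets, the small vessel genes Rbp7, Sema3g, Gpihbp1 and Gja4 and the venous genes Selp, Chp2, Grrp1 and Ackr1. The rule found 675 cells among 9289 endothelial barcodes and 38072 kept barcodes, of 73666 barcodes deposited. The library labelled Healthy gave 164 of these cells, AS gave 20, MTZ-treated gave 265 and MTZ-preventive gave 226.

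The inner surface of the aorta is lined by endothelium that meets fast, pulsing blood. Arterial endothelium is set apart from that of veins and capillaries during development by Notch signalling and transcription factors of the SoxF family, and in the adult it is kept quiescent by laminar flow through the factors Klf2 and Klf4. It makes nitric oxide and prostacyclin, which relax the vessel wall and hold back platelets, and endothelin, which constricts it. In atherosclerosis this layer takes up lipoproteins and displays adhesion molecules to leukocytes. The endothelium of the small vessels in the adventitia and the surrounding fat is specialised instead for passing fatty acids to the tissue.

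The labels and the methods give ApoE−/− mice for all groups, 8 weeks old at the start and kept for 24 weeks. The library labelled Healthy came from mice on normal feed with saline, and the AS mice were fed chow enriched with cholesterol (1%) and fat (10%) and were given saline. The MTZ-treated group had that diet and methazolamide (MTZ), an inhibitor of carbonic anhydrases, at 25 mg/kg for the last 12 weeks, and the MTZ-preventive group had the diet and the same dose for all 24 weeks. Each library was a pool of 6 aortas, so 1 library stands for 1 condition and no test between conditions was possible. Unless libraries are named, 4 values in a row below are in the order Healthy, AS, MTZ-treated and MTZ-preventive. Apoe itself, read as a check of the genotype, stood at 2148, 0, 30.6 and 30.3 UMIs per 1000000 summed UMIs (CPM) in the arterial cells. The first of these levels went against the ApoE−/− label, so that library is named by its label throughout, and genotype and diet cannot be told apart in any difference from it. All intervals below are 95% intervals of counting error alone, exact Poisson for CPM, exact binomial (Clopper-Pearson) for shares and exact conditional for ratios, and do not hold the spread between mice.

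Of the 675 cells, 4 went against the arterial label. They held 13 or 14 of 14 neuronal genes such as Npy, Th, Dbh and Stmn2, no UMI of Pecam1, Cdh5, Gkn3, Gja5 or Bmp6, and between 38412 and 119186 UMIs, and they met the rule through Ptprr, which encodes a receptor tyrosine phosphatase. Of these barcodes 2 lay in the Healthy-labelled library, 1 in MTZ-treated and 1 in MTZ-preventive, and they held 27.5%, 7.04% and 5.25% of the UMIs of the members there. The other 671 cells had at most 4 of the 14 genes. Levels below are summed over the other 671 cells, 162, 20, 264 and 225 in the 4 libraries, which held 607614, 35003, 719690 and 692741 UMIs. Their median depth was 2343, 1444.5, 1690.5 and 2266 UMIs. A gene with 0 UMIs could still have up to 85.7 CPM in AS (the level of 3 UMIs), against 4.94, 4.17 and 4.33 CPM in the other libraries. Levels in AS are therefore the least certain throughout, since 100 CPM there is 3.5 UMIs.

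To show what the transcripts that define and mark these cells start from, the promoters of 2 genes of the rule, Gkn3 and Gja5, and of Cytl1, a marker that the rule did not use, are printed here (RefSeq, build GRCm38.p6, 250 bases before to 50 bases after the start, 5′ to 3′ on the strand of the gene). Gkn3 (ENSMUSG00000030048) encodes gastrokine 3, Gja5 (ENSMUSG00000057123) encodes the gap junction protein connexin 40, and Cytl1 (ENSMUSG00000062329) encodes a small secreted protein. The windows are chr6:87388886-87389185 on the minus strand for Gkn3, chr3:97032152-97032451 on the plus strand for Gja5 and chr5:37735269-37735568 on the plus strand for Cytl1. Capitals mark the letters CCACCC, or GGGTGG on the other strand, which Klf factors can bind.
Gkn3: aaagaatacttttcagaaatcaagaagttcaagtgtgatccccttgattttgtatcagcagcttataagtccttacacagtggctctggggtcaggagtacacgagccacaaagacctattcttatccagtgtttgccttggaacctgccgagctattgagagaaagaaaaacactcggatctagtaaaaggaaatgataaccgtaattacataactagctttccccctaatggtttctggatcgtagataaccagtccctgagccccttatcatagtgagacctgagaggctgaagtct
Gja5: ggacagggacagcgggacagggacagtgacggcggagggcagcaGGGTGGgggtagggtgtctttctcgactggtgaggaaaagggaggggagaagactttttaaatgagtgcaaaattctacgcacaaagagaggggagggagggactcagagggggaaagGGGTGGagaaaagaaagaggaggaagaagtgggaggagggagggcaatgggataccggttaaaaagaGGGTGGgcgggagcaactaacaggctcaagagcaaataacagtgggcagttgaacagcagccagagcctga
Cytl1: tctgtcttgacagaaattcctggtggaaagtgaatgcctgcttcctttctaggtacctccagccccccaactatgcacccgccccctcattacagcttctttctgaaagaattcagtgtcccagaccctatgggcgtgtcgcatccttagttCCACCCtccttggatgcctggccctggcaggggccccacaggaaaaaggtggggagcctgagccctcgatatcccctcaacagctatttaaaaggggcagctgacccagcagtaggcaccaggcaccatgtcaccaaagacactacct
Gja5 held 3 matches, Cytl1 held 1 and Gkn3 held none, and 31.5% of 32851 promoters of this length held at least 1. The letters TGGGAA, bound by the Notch partner Rbpj, occurred on either strand in 25.6% of all promoters. The letters AACAAT, a SoxF site, occurred on either strand in 10.7%. Neither was in any of the 3 windows. Among 12 genes with a promoter in the RefSeq table, of 19 looked up (the 4 rule genes, Cytl1, Clu and the 15 genes highest against the other endothelial cells), 5 held the Klf letters, 1 the Rbpj letters and 0 the SoxF letters. A match is a description of the letters and not a sign of binding.

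The genes that chose the cells were not evenly spread over them. Gkn3 stood at 1193 CPM (1108 to 1283) in the Healthy-labelled library, 343 (177 to 599) with AS, 860 (794 to 931) with MTZ-treated and 1184 (1104 to 1268) with MTZ-preventive. Gja5 stood at 344, 457, 211 and 261 CPM in the same order. Bmp6, a secreted ligand of bone morphogenetic protein (BMP) receptors, stood at 415, 514, 343 and 290 CPM, and Ptprr at 237, 229, 265 and 176 CPM. When each cell was thinned to 1000 UMIs, Gkn3 was found in 58.0%, 30%, 59.5% and 67.1% of the cells and Gja5 in 22.8%, 30%, 22.3% and 20.4%. At that depth 25, 4, 31 and 36 cells held none of the 4 genes, 71, 10, 128 and 121 held 1 of them, and 1 cell in all held 4.

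Most cells met the threshold by little in AS. Exactly 2 arterial UMIs were held by 41 of 164, 14 of 20, 97 of 265 and 50 of 226 cells, and the median was 4.5, 2, 3 and 4 UMIs. UMIs of the opposing sets were present in 125, 12, 192 and 181 of the members. Cytl1 and Clu, the secreted chaperone clusterin, were not part of the rule. In the Healthy-labelled library, Cytl1 stood at 1230 CPM in 41 endothelial barcodes just outside the threshold (1 arterial UMI and none of the other sets), 2041 in those with 2 arterial UMIs and 5097 in those with 3 or more. The 3 levels were 957, 1932 and 2633 CPM in AS, 812, 965 and 3265 in MTZ-treated, and 791, 1802 and 3430 in MTZ-preventive. Clu stood at 1260, 1976 and 4406 CPM in the Healthy-labelled library and at 1847, 4755 and 5536 in AS. In MTZ-treated the levels of both genes just inside the threshold were close to those just outside it, 1411 against 1077 CPM for Clu, whereas cells with 3 or more arterial UMIs stood far above both.

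**Figure D1:**
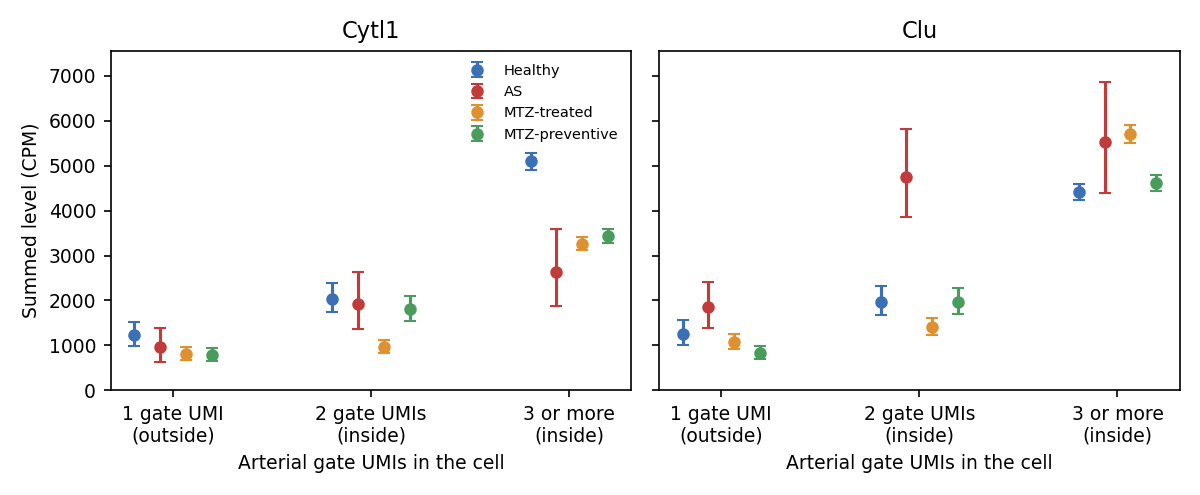
Summed levels of Cytl1 and Clu (CPM, y axis) in endothelial barcodes just outside the threshold (1 arterial UMI) and in arterial cells with 2 or with 3 and more arterial UMIs, for 4 libraries, with exact Poisson intervals. Levels are highest at 3 or more UMIs in every library, and for MTZ-treated the points at 1 and 2 UMIs lie close together.

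The markers fixed for these cells were present in each library. Cytl1 was found in 83.3%, 75%, 67.4% and 64.9% of the thinned cells and Clu in 90.7%, 80%, 83.0% and 81.3%. Leukocytes thinned in the same way, which should lack Cytl1, held it in 0.377%, 0%, 3.10% and 1.77% of cells (median depths 2367.5, 1503, 1846 and 2034 UMIs before thinning), and the share in arterial cells was above it in each library. Small vessel cells held Cytl1 in 7.16%, 10%, 16.4% and 5.54%. Cdh5, VE-cadherin, stood at 323, 343, 272 and 346 CPM, and the 6 endothelial genes together at 5512, 4371, 4388 and 5224 CPM. The rule required endothelial genes, so the last 2 levels describe the cells and do not check the label. Cytl1 and Clu were not used by it, but they were fixed as markers with earlier results of these data known. Their levels therefore describe the cells too and are no independent check of the label. Markers of other cell types were also present, and in places above the endothelial genes: the 6 adipocyte markers summed to 8971 CPM in AS and the 6 smooth muscle markers to 4614 CPM in MTZ-treated.

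Arterial cells took a smaller share of the endothelial barcodes in AS than in the other libraries. The shares were 10.5% (9.06 to 12.2), 2.38% (1.46 to 3.65), 9.49% (8.43 to 10.6) and 5.51% (4.83 to 6.25), and no 2 of these intervals overlapped except those of the Healthy-labelled library and MTZ-treated. On the log2 scale, AS stood −2.15 (−2.90 to −1.47) from the Healthy-labelled library. MTZ-treated stood 2.0 (1.34 to 2.73) and MTZ-preventive 1.21 (0.55 to 1.95) above AS, and the 3 ratios share the AS library. MTZ-preventive lay below MTZ-treated by a log2 ratio of −0.78 (−1.05 to −0.52). Small vessel cells made up 29.9%, 40.4%, 22.8% and 33.5% of the endothelial barcodes, with the highest share in AS, and venous cells 9.90%, 8.56%, 15.2% and 11.3%.

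The order depended on what the cells were counted against. Of all kept barcodes, arterial cells were 1.33%, 0.909%, 3.67% and 1.39%, and the log2 ratio of AS to the Healthy-labelled library became −0.55 (−1.30 to 0.13), an interval that holds 0. The ratio to AS was 2.02 (1.36 to 2.75) for MTZ-treated and 0.61 (−0.05 to 1.35) for MTZ-preventive. A deeper cell passes a rule on UMIs more easily, and when every cell was thinned to 1000 UMIs before the rule was applied the shares of endothelial barcodes were 7.81% (99 of 1267), 1.62% (11 of 678), 7.0% (159 of 2270) and 4.43% (127 of 2869). The order of the libraries was the same. Cells that held at least 2 UMIs of the markers of any of 7 other cell types (smooth muscle, fibroblast, adipocyte, neutrophil, macrophage, B cell and T cell) were common, and without them 56, 3, 87 and 41 arterial cells remained. Values for these cells with few markers of other types are given beside the gene groups below.

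**Figure D2:**
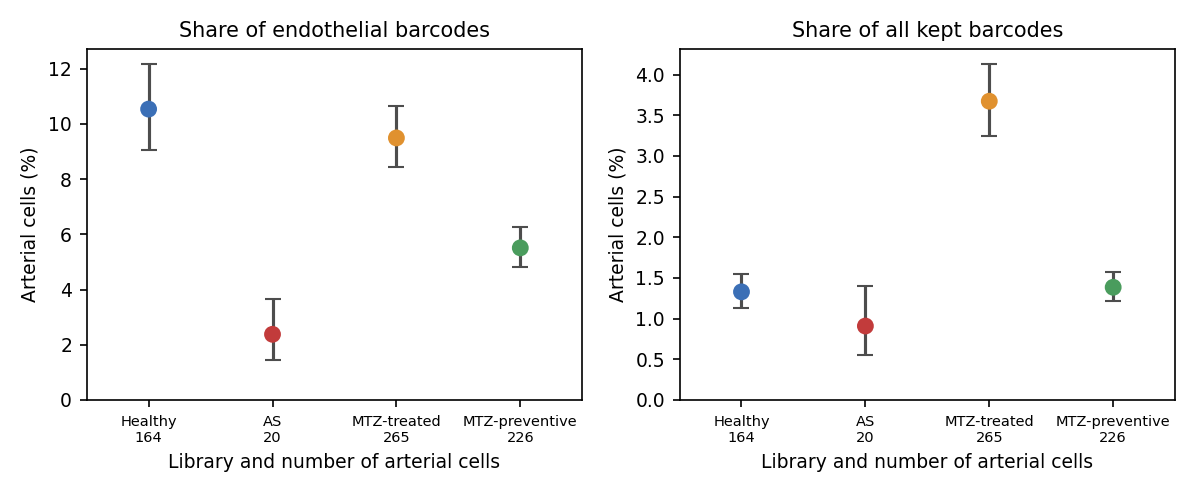
Arterial cells as a percentage of endothelial barcodes and of all kept barcodes (y axes) in the 4 libraries, with exact binomial intervals of counting error; the number of cells stands under each library. AS is lowest in both panels, and against all kept barcodes its interval overlaps those of the Healthy-labelled library and of MTZ-preventive.

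Set against the small vessel cells of the same library, arterial cells had higher levels of 4 of 10 measured arterial identity genes, 2 of 13 matrix genes (Mgp and Bgn) and 2 of 5 haemostasis genes (Vwf and Procr) in all 4 libraries, and lower levels of 5 of 10 lipid handling genes. The cells were chosen on this contrast, so the values describe them and carry no test. Of 1376 genes, 39 were at least 2-fold higher in arterial cells in all 4 libraries (2.83%) and 30 at least 2-fold lower (2.18%). Against venous cells 29 of 1319 genes (2.20%) were higher and 17 (1.29%) lower in all 4. Cytl1 stood at 4710, 2228, 2748 and 3212 CPM in arterial cells, 44.1, 9.42, 6.67 and 32.7 times its level in small vessel cells. Clu stood at 4098, 5085, 4738 and 4261 CPM, 7.49, 5.80, 3.93 and 7.65 times that level. Of the list of 20 arterial genes, 10 were measured in both kinds of cell, and Cytl1, Clu, Heg1 and Edn1 were higher in all 4 libraries. Heg1, a receptor at endothelial junctions, was 5.31, 3.61, 2.63 and 3.31 times higher, and Edn1, the precursor of endothelin, 4.53, 4.39, 2.53 and 4.24 times. Ratios of MTZ-treated were the smallest of the 4 for each of Cytl1, Clu, Heg1 and Edn1.

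Genes on that list or not were also ranked against all other endothelial cells, by the smallest of their 4 library ratios. With the genes of the rule left out, the 15 highest were Krt18, Cytl1, Bmp4, Sfrp1, Tmem158, Gxylt2, Clu, Ephx2, Clec14a, Lmo2, Smoc1, Edn1, Vwf, Tm4sf1 and Fam3c. Krt18, a keratin of simple epithelia, stood at 189, 257, 228 and 160 CPM in arterial cells, 41.6, 31.0, 6.64 and 14.7 times the level in the other endothelial cells. Sfrp1, a secreted inhibitor of Wnt ligands, stood at 609, 943, 728 and 498 CPM, 22.8, 11.6, 4.36 and 8.09 times that level. Bmp4, a BMP ligand that endothelium secretes, stood at 517, 257, 443 and 406 CPM, 18, 11.7, 5.16 and 10.5 times its level in small vessel cells. Mgp, matrix Gla protein, which binds BMPs and restrains calcification, was 8.69, 2.99, 3.28 and 6.62 times higher than in small vessel cells, and Bgn, the proteoglycan biglycan, 11.8, 2.55, 3.26 and 4.09 times. Vwf, which tethers platelets, was 13.4, 7.91, 3.50 and 7.20 times higher, Ptgis, prostacyclin synthase, 8.86, 2.73, 2.48 and 3.08 times, and Vcam1, the adhesion molecule for monocytes, 11.8, 4.68, 3.67 and 8.30 times. Vcam1 stood at 421, 371, 522 and 449 CPM in arterial cells. Venous cells were nearer to that level, and arterial cells had 1.62, 1.62, 1.36 and 1.07 times as much Vcam1 as they did.

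On the lower side stood lipid handling. Of 10 measured genes of 18 on that list, 5 were at least 2-fold lower than in small vessel cells in all 4 libraries and none higher: Cd36 and Scarb1, which take up fatty acids and lipoprotein lipids, Fabp4, a carrier of fatty acids, Lpl, lipoprotein lipase, and Tcf15, a transcription factor of fatty acid transport in capillaries. Cd36 stood at 41.1, 171, 43.1 and 56.3 CPM, and Fabp4 at 793, 3171, 1110 and 1605 CPM, 0.0410, 0.210, 0.0806 and 0.0859 times the small vessel level. The ratio for AS was the highest of the 4, and Fabp4 of small vessel cells stood at 19344, 15091, 13775 and 18677 CPM. Kdr, a receptor of vascular endothelial growth factor, and Car4, a carbonic anhydrase of capillaries, were lower as well. Klf2 lay close to its small vessel level, with ratios of 0.995, 1.05, 1.33 and 1.37, as did H2-K1, with 1.27, 1.11, 1.17 and 1.30. Of the carbonic anhydrases, the enzymes that MTZ inhibits, 1 of 16, Car3, which was also on the list of adipocyte markers, was at a mean of 100 CPM in arterial cells in any comparison, and Car2, Car4 and Car14 held at most 2 UMIs each in any library.

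**Figure D3:**
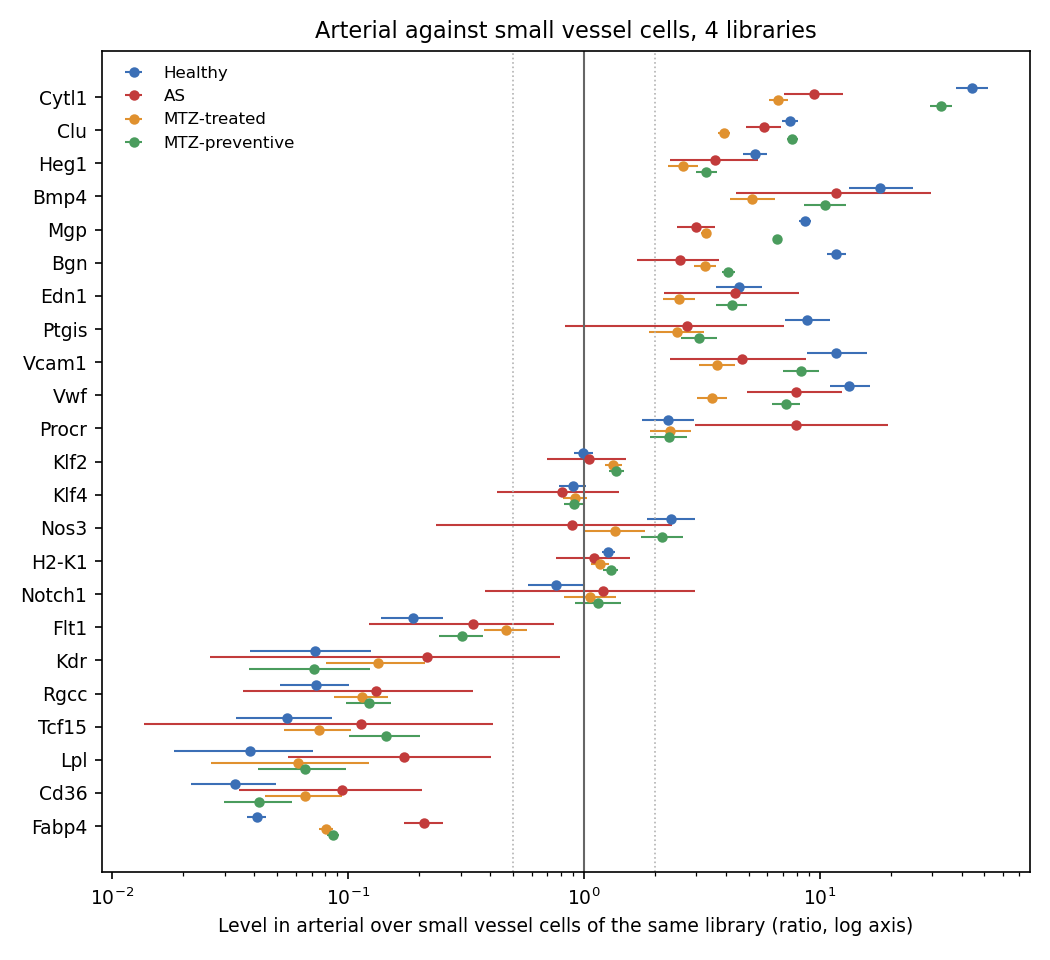
Level in arterial over small vessel cells of the same library (ratio, log axis) for 23 listed genes in 4 libraries; a ratio of 1 is no difference. Cytl1, Clu, Bmp4, Mgp, Vcam1 and Vwf lie above 1 in every library, Cd36 and Fabp4 far below, and Klf2 and H2-K1 near 1.

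Between libraries, genes with a mean of at least 100 CPM over the 2 libraries compared were counted where they differed at least 2-fold, as a background for the gene groups. A gene could reach that mean through a single library, so the counts of a list lean to the library in which its members are high. AS against the Healthy-labelled library had 188 of 1353 genes higher (13.9%) and 172 lower (12.7%), with the 4 neuronal barcodes kept 196 and 268. MTZ-treated against AS had 138 of 1367 genes higher (10.1%) and 149 lower (10.9%), with these barcodes 149 and 153. MTZ-preventive against AS had 148 of 1390 higher (10.6%) and 173 lower (12.4%), with these barcodes 151 and 172. The 3 comparisons rest on 20 cells and share them. The libraries with more cells differed less: MTZ-treated against the Healthy-labelled library had 35 of 1353 genes higher (2.59%) and 64 lower (4.73%), MTZ-preventive against it 22 of 1362 higher (1.62%) and 31 lower (2.28%), and MTZ-preventive against MTZ-treated 26 of 1371 higher (1.90%) and 12 lower (0.875%). With the neuronal barcodes kept, these counts were 47 and 146, 46 and 122, and 30 and 14. In the cells with few markers of other types they were 73 and 89, 98 and 69, and 87 and 68. H2-K1, described below, had log2 ratios to the Healthy-labelled library of −0.62 in MTZ-treated and −0.50 in MTZ-preventive with the neuronal barcodes kept. These 3 comparisons were added after the counts of cells were seen.

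The balance of higher and lower genes moved with the scaling. With trimmed mean of M values (TMM) factors in place of totals, the counts of AS against the Healthy-labelled library were 77 higher and 318 lower. Those against AS were 347 and 52 for MTZ-treated and 270 and 55 for MTZ-preventive. The other 3 comparisons had 51 and 61, 20 and 35, and 22 and 33, in the order given above. The factors shift every log2 ratio by −0.43, 0.50, 0.39, 0.07, −0.05 and −0.11 in the 6 comparisons. A log2 ratio smaller than the shift of its comparison can change sign with the scaling, as 2 of the ratios of Psmb8 given below did.

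Genes of antigen presentation were lower in the arterial cells of all 3 libraries from mice on the cholesterol diet than in the Healthy-labelled library. Of 11 measured genes of 12, the number at least 2-fold lower was 10 for AS, 8 for MTZ-treated and 6 for MTZ-preventive, and 0 were higher. Over all genes 12.7%, 4.73% and 2.28% were lower in the same order. The median log2 ratio was −1.98 in AS with genes at 0 set to the level of 3 UMIs, −1.42 in MTZ-treated and −1.04 in MTZ-preventive, beside medians of 0.12, 0.10 and 0.04 over all genes. H2-K1, a heavy chain of class I, stood at 2347 CPM (2227 to 2472), 971 (673 to 1357), 1194 (1115 to 1276) and 1272 (1189 to 1359), and the interval of the first lay above the others. Its log2 ratio to the Healthy-labelled library was −1.27 in AS, −0.98 (−1.10 to −0.85) in MTZ-treated and −0.88 (−1.01 to −0.76) in MTZ-preventive. H2-D1, another class I heavy chain, stood at 3061, 914, 1313 and 1605 CPM, with log2 ratios of −1.74, −1.22 and −0.93. B2m, their light chain, stood at 2154, 743, 1259 and 1100 CPM, with log2 ratios of −1.54, −0.78 and −0.97.

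Class II genes were lower as well. Cd74, the class II invariant chain, stood at 1608, 171 (6 UMIs), 218 and 582 CPM, and the log2 ratio of the last 2 to the first was −2.88 (−3.13 to −2.64) and −1.47 (−1.64 to −1.30). H2-Aa, a class II chain, stood at 339, 0, 68.1 and 127 CPM. Psmb8, a subunit of the immunoproteasome, stood at 360, 371, 350 and 335 CPM, with log2 ratios near 0 of 0.04 (−0.89 to 0.85), −0.04 (−0.31 to 0.23) and −0.11 (−0.38 to 0.17). The interferon list did not share the gap: of 5 measured genes of 15, none was 2-fold lower or higher in any of the 3 libraries against the Healthy-labelled library, and Ifitm3, an antiviral membrane protein, stood at 2530, 2714, 3075 and 2486 CPM. H2-K1 also stood highest in the Healthy-labelled library in small vessel cells, where it was at 1852, 877, 1021 and 977 CPM. Cd74 in small vessel cells stood at 715, 128, 236 and 746 CPM. In venous cells it stood at 1400, 122, 283 and 461 CPM and in non-endothelial barcodes at 6916, 641, 1410 and 3183 CPM, so it was lower in all 3 libraries from the diet there too. The 6 B cell markers in the arterial cells summed to 138, 28.6, 11.1 and 93.8 CPM, led by Cd79a except in AS, where Igkc had 1 UMI and the other 5 were at 0, and the 6 macrophage markers summed to 3.29, 28.6, 129 and 23.1 CPM. In the cells with few markers of other types, the log2 ratios to the Healthy-labelled library were −1.50 in MTZ-treated and −1.19 in MTZ-preventive for H2-K1, and −5.82 and −4.05 for Cd74, so the gaps of these 2 genes were wider there.

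Most of the measured matrix genes were lower in AS. Of 13 measured matrix genes of 20, 8 were at least 2-fold lower and 2 higher in AS than in the Healthy-labelled library, with a median log2 ratio of −1.65. In MTZ-treated 3 were lower and 1 higher, and in MTZ-preventive 2 were lower and 2 higher. Eln, which encodes elastin, stood at 2847, 314 (11 UMIs), 874 and 775 CPM. Its log2 ratio to the Healthy-labelled library was −3.18 (−4.18 to −2.34) in AS, −1.70 (−1.84 to −1.57) in MTZ-treated and −1.88 (−2.02 to −1.74) in MTZ-preventive. Small vessel cells had Eln at 418, 205, 268 and 158 CPM, and non-endothelial barcodes had it at 883, 242, 263 and 133 CPM. The log2 ratios to the Healthy-labelled library in those barcodes were −1.87 in AS and −2.73 in MTZ-preventive, so Eln was lower outside the arterial cells too. Bgn stood at 3981, 857, 1406 and 2414 CPM and Timp3, an inhibitor of matrix metalloproteinases, at 1295, 171, 686 and 1263 CPM. For Bgn the log2 ratio of AS to the Healthy-labelled library was −2.22 (−2.79 to −1.70), and for Timp3 it was −2.92 (−4.37 to −1.79). In small vessel cells Bgn stood at 338, 336, 431 and 590 CPM and Timp3 at 1429, 972, 858 and 1085 CPM. In venous cells Bgn stood at 1217, 153, 498 and 1042 CPM, a log2 ratio of −2.99 for AS against the Healthy-labelled library and of 2.77 for MTZ-preventive against AS, so a gap in Bgn was also found there.

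Against AS, 5 of the 13 measured matrix genes were at least 2-fold higher and 0 lower in MTZ-treated, and 6 of 13 were higher and 1 lower in MTZ-preventive. Over all genes 10.1% and 10.6% were higher in these libraries. Timp3 was higher in both, and Bgn passed 2-fold in MTZ-preventive only. Timp3 was higher than in AS by a log2 ratio of 2.0 (0.87 to 3.45) in MTZ-treated and 2.88 (1.75 to 4.33) in MTZ-preventive, and Bgn by 1.49 (0.97 to 2.07) in MTZ-preventive. Cdh13, T-cadherin, which binds lipoproteins and adiponectin, stood at 668, 85.7, 627 and 755 CPM, and Ptprb, a phosphatase that holds back the Tie2 receptor, at 1165, 200, 830 and 956 CPM. Both were among the genes that stood highest against AS in MTZ-treated and MTZ-preventive, with log2 ratios of 2.87 (1.31 to 5.15) and 3.14 (1.58 to 5.42) for Cdh13 and 2.05 and 2.26 for Ptprb, from 3 and 7 UMIs in AS. Cav1, caveolin-1, was likewise lowest in AS, at 1178, 371, 799 and 1150 CPM. Between the 2 libraries with MTZ, Timp3 was higher in MTZ-preventive by 0.88 (0.72 to 1.04) and Bgn by 0.78 (0.67 to 0.89). The 6 fibroblast markers in the arterial cells summed to 2424, 686, 1146 and 1285 CPM, with Col1a1 the most abundant in the Healthy-labelled library at 788 CPM and Dcn in the others, and Pdgfra at 0 in AS. In the cells with few markers of other types, the log2 ratios of Eln to the Healthy-labelled library were −2.74, −2.41 and −1.88, and Timp3 stood above AS by 0.32 in MTZ-treated and 1.18 in MTZ-preventive, from 3 cells in AS.

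Some genes of vasoactive products stood lower in the libraries from the cholesterol diet. Of 16 listed genes, 6 were measured in AS against the Healthy-labelled library with 3 at least 2-fold lower, 7 in MTZ-treated with 2 lower and 8 in MTZ-preventive with 2 lower, and none was 2-fold higher. Over all genes 12.7%, 4.73% and 2.28% were lower in the same order. Ptgis stood at 593 CPM (533 to 657), 143 (46.4 to 333), 183 (153 to 218) and 282 (243 to 324), with log2 ratios of −2.05, −1.69 (−1.99 to −1.40) and −1.07 (−1.33 to −0.82) to the first. Ace, the enzyme that makes angiotensin II, stood at 708, 171, 354 and 474 CPM, with log2 ratios of −2.05 in AS and −1.0 (−1.23 to −0.77) in MTZ-treated. Sod3, extracellular superoxide dismutase, stood at 665, 286, 249 and 374 CPM, with log2 ratios of −1.42 in MTZ-treated and −0.83 in MTZ-preventive. In small vessel cells Ptgis stood at 66.9, 52.4, 74.1 and 91.4 CPM and Ace at 88.3, 145, 125 and 86.6 CPM. In the cells with few markers of other types, the log2 ratios of Ptgis to the Healthy-labelled library were −2.56 in MTZ-treated and −1.41 in MTZ-preventive. Nos3, endothelial nitric oxide synthase, stood at 224, 114 (4 UMIs), 113 and 189 CPM. Edn1 stood at 349, 371, 549 and 452 CPM, highest in MTZ-treated.

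Of 9 to 10 measured flow-responsive genes of 17, 2 were higher and 1 lower in AS than in the Healthy-labelled library, 0 higher and 1 lower in MTZ-treated, and 0 in either direction in MTZ-preventive. The share in AS is near that over all genes. Klf2 stood at 1053 CPM (973 to 1138), 857 (578 to 1224), 1317 (1235 to 1404) and 1283 (1200.3 to 1371), and Klf4 at 527, 371, 593 and 634 CPM. Both factors are immediate responders, and the immediate early list, which follows cell dissociation too, had 1 of 14 measured genes at least 2-fold higher than in the Healthy-labelled library for AS, 1 for MTZ-treated and 0 for MTZ-preventive. The gene was Atf3, a stress-induced transcription factor, at 553, 1343, 1214 and 1097 CPM, highest in AS. Klk10, a secreted protease of the kallikrein family found in arterial endothelium, had a wider gap: it stood at 291, 0, 32.0 and 105 CPM, with a log2 ratio of −3.19 (−3.88 to −2.56) for MTZ-treated against the Healthy-labelled library. Ecrg4, which encodes a secreted peptide precursor, stood at 484, 0, 43.1 and 172 CPM, at least 5.65-fold lower in AS against the level of 3 UMIs there. Small vessel cells had at most 14.8 CPM of Ecrg4 and at most 11.8 CPM of Klk10.

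Arterial identity genes were 2-fold apart in AS about as often as all genes. Of 11 measured genes of the 20 listed, 1 was higher and 2 lower in AS than in the Healthy-labelled library, with a median log2 ratio of 0.04. Of the 11 in MTZ-treated 1 was higher and 1 lower, and of 12 in MTZ-preventive 1 was higher and 0 lower. Efnb2, the arterial ephrin ligand, stood at 140, 200, 139 and 114 CPM, and Sox17, a SoxF transcription factor, at 222, 229, 185 and 244 CPM. Cxcl12, a chemokine that draws leukocytes and progenitors, was the gene that was higher in each of the 3 libraries, at 125, 486, 496 and 276 CPM, with a log2 ratio of 1.99 (1.63 to 2.36) in MTZ-treated, which was 0.65 in the cells with few markers of other types. Fbln5, which organises elastic fibres, stood at 909, 257, 567 and 559 CPM, and Heg1 at 1384, 800, 625 and 868 CPM. Of 16 genes of the Notch pathway 3 were measured in AS against the Healthy-labelled library, none 2-fold apart, with the receptor Notch1 at 117, 143, 136 and 143 CPM. Its ligand Dll4 stood at 46.1, 85.7 (3 UMIs), 80.6 and 108 CPM.

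A group of metal-binding and acute-phase genes held members far higher in AS. Of 10 measured genes of 15, 8 were at least 2-fold higher and 1 lower in AS than in the Healthy-labelled library, with a median log2 ratio of 3.83. Over all genes 13.9% were higher and 12.7% lower. Members such as Lrg1 and Lcn2 were measured through AS alone, so this count and median lean to AS. In MTZ-treated against the Healthy-labelled library 3 of 5 were higher and 1 lower, beside 2.59% and 4.73% of all genes. In MTZ-preventive 5 of 7 were higher and 0 lower, beside 1.62% and 2.28%. Mt1, a metallothionein that binds zinc and copper and responds to glucocorticoids, stood at 917 CPM (842 to 996), 9828 (8817 to 10923), 1346 (1263 to 1434) and 2398 (2284 to 2516). No 2 of these intervals overlapped. Its log2 ratio was 3.42 (3.22 to 3.62) for AS against the Healthy-labelled library. Against AS it was −2.87 (−3.05 to −2.69) in MTZ-treated and −2.04 (−2.20 to −1.86) in MTZ-preventive. Mt2 had the same order, at 119, 1886, 238 and 446 CPM. Lrg1, a secreted glycoprotein induced in inflamed endothelium, stood at 44.4, 2457, 211 and 274 CPM, with log2 ratios of 5.79 (5.15 to 6.47), −3.54 (−3.93 to −3.14) and −3.16 (−3.54 to −2.78). Lcn2, the iron-sequestering lipocalin, stood at 9.88, 743, 47.2 and 46.2 CPM. In non-endothelial barcodes Mt1 stood at 577, 13157, 1948 and 7416 CPM and Lrg1 at 18.1, 709, 65.9 and 571 CPM. Lcn2 stood there at 14.4, 1130, 65.3 and 173 CPM. These genes were thus highest in AS outside the arterial cells too.

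In MTZ-preventive the arterial cells held less of several of these genes than the small vessel cells of the library did, and less of the fat cell genes described next. In its small vessel cells Mt1 stood at 7739 CPM, beside 8561 in AS, and Lrg1 at 1014 CPM, beside 1026 in AS, while the arterial cells of MTZ-preventive had 2398 and 274 CPM. In MTZ-treated both kinds of cell were low, with 1346 CPM of Mt1 in arterial and 1195 in small vessel cells. Cdkn1a, the cell cycle inhibitor p21, was on the same list and stood at 109, 429, 400 and 335 CPM, higher than in the Healthy-labelled library by a log2 ratio of 1.88 (1.49 to 2.29) in MTZ-treated and 1.62 (1.22 to 2.04) in MTZ-preventive. Its levels in MTZ-treated and AS lay within counting error of each other.

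Transcripts of fat cells moved with this group. The 6 adipocyte markers summed to 6.58 CPM in the arterial cells of the Healthy-labelled library (2 of 6 detected, with Car3 the most abundant and Adipoq, Cidec, Plin1 and Retn at 0), and 8971, 467 and 1533 CPM in the others (6 of 6 detected in each, led by Cfd). In non-endothelial barcodes the same sum was 164, 15596, 433 and 6847 CPM, and in the other endothelial cells it was 373, 11399, 1210 and 7136 CPM. Cfd, the serine protease adipsin, stood at 1.65 (1 UMI), 7742, 400 and 1286 CPM, a log2 ratio of 12.20 (9.71 to 17.51) for AS. In small vessel cells Cfd stood at 569, 6198, 1672 and 8144 CPM. Hp, haptoglobin, a plasma protein that binds haemoglobin, was at 0 in the Healthy-labelled library and at 1086 CPM in AS, at least 220-fold higher against the level of 3 UMIs. In MTZ-preventive Hp stood at 404 CPM in arterial and 3372 CPM in small vessel cells, so the gap between the 2 kinds of cell there was shared by Mt1, Lrg1, Cfd and Hp. The 6 neutrophil markers summed to 1.65, 571, 13.9 and 47.6 CPM, with S100a9 the most abundant in AS and Csf3r, Mmp8 and Cxcr2 at 0 there, and the 5 erythroid markers to 0, 429, 45.9 and 5.77 CPM, led by Hbb-bs. In the cells with few markers of other types, 3 of them in AS, the log2 ratio of AS to the Healthy-labelled library was 3.40 for Mt1 and 5.86 for Lrg1.

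Smaller groups are given by their counts. Over all genes, 13.9% were higher and 12.7% lower in AS than in the Healthy-labelled library. Against that library the shares were 2.59% and 4.73% in MTZ-treated and 1.62% and 2.28% in MTZ-preventive. Against AS, 10.1% and 10.6% of all genes were higher in MTZ-treated and MTZ-preventive. The 1 higher gene of 12 BMP and TGF-β genes and the 1 lower of 8 heat shock genes in AS lie near these shares. Of 6 measured lipid genes in AS against the Healthy-labelled library 4 were higher and 2, Apoe and Cav1, were lower. In each MTZ library against the Healthy-labelled library 3 of that list were measured. Of 8 measured adhesion and chemokine genes 2 were higher in AS, Ccl2 and Cxcl2. Ccl2, a monocyte attractant, stood at 3.29, 314 (11 UMIs), 36.1 and 21.7 CPM, and no gene of the list was lower. Cxcl2 stood at 42.8 CPM in the Healthy-labelled library, so both genes were measured through AS alone. Vcam1 was not among the higher genes, and in MTZ-treated and MTZ-preventive against the Healthy-labelled library 1 and 0 of 5 were higher. Of 8 measured junction genes 4 were lower in AS, and of 7 measured with MTZ 0 were 2-fold apart from the Healthy-labelled library in either group, with Icam2 at 757, 371, 386 and 440 CPM. Of 12 measured BMP and TGF-β genes in AS 1 was higher and 4 lower, and of 11 in each MTZ library against the Healthy-labelled library 0 were 2-fold apart. Hmox1, haem oxygenase 1, stood at 14.8, 371, 30.6 and 70.7 CPM. Of 7 measured mesenchymal genes 3 were lower in AS than in the Healthy-labelled library, beside 12.7% of all genes. Against AS, 6 of 7 were higher in MTZ-treated, beside 10.1% of all genes, and 0 of 5 were 2-fold apart in MTZ-preventive. The measured genes thus differ between these 2 counts, and 1 of the 7 had no UMI in AS. Smooth muscle markers also summed higher in MTZ-treated than in AS, 4614 against 2971 CPM in arterial cells. In non-endothelial barcodes they summed to 19124 against 6589 CPM. A link to the mesenchymal counts was not tested. Of 8 measured heat shock genes 2 were higher and 1 lower in AS than in the Healthy-labelled library. Against AS, 1 was higher in MTZ-treated and 3 in MTZ-preventive, and 0 were lower. None of the 10 cell cycle and 15 Hox genes reached a mean of 100 CPM.

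The 26 higher and 12 lower genes of MTZ-preventive against MTZ-treated became 31 and 29 without called doublets and 35 and 29 with the rule applied to thinned cells. With totals that left out mitochondrial, ribosomal protein and haemoglobin genes they became 35 and 26. Of the lists, metal-binding and acute-phase genes had 3 of 7 higher in MTZ-preventive than in MTZ-treated, antigen presentation had 1 of 8 higher, adhesion and chemokine genes had 1 of 5 lower, and arterial identity, vascular tone, flow and matrix had 0 in either direction. Over all genes 1.90% were higher and 0.875% lower. Cd74 was higher in MTZ-preventive by a log2 ratio of 1.42 (1.15 to 1.69), Serpina3n, an acute-phase protease inhibitor, by 1.70 (1.13 to 2.30), at 153 against 47.2 CPM, Ecrg4 by 2.0 (1.42 to 2.62), and Mt1 by 0.83 (0.72 to 0.95). Acta2, smooth muscle actin, was lower by a log2 ratio of −0.94 (−1.07 to −0.80), at 960 against 1838 CPM. The 6 smooth muscle markers together, led by Tagln in each library, summed to 2582, 2971, 4614 and 2681 CPM in the 4 libraries, and in non-endothelial barcodes to 9862, 6589, 19124 and 10750 CPM, highest in MTZ-treated in both. In the cells with few markers of other types the log2 ratio of Acta2 between the MTZ libraries was −0.37, and that of Ecrg4 was 0.10.

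**Figure D4:**
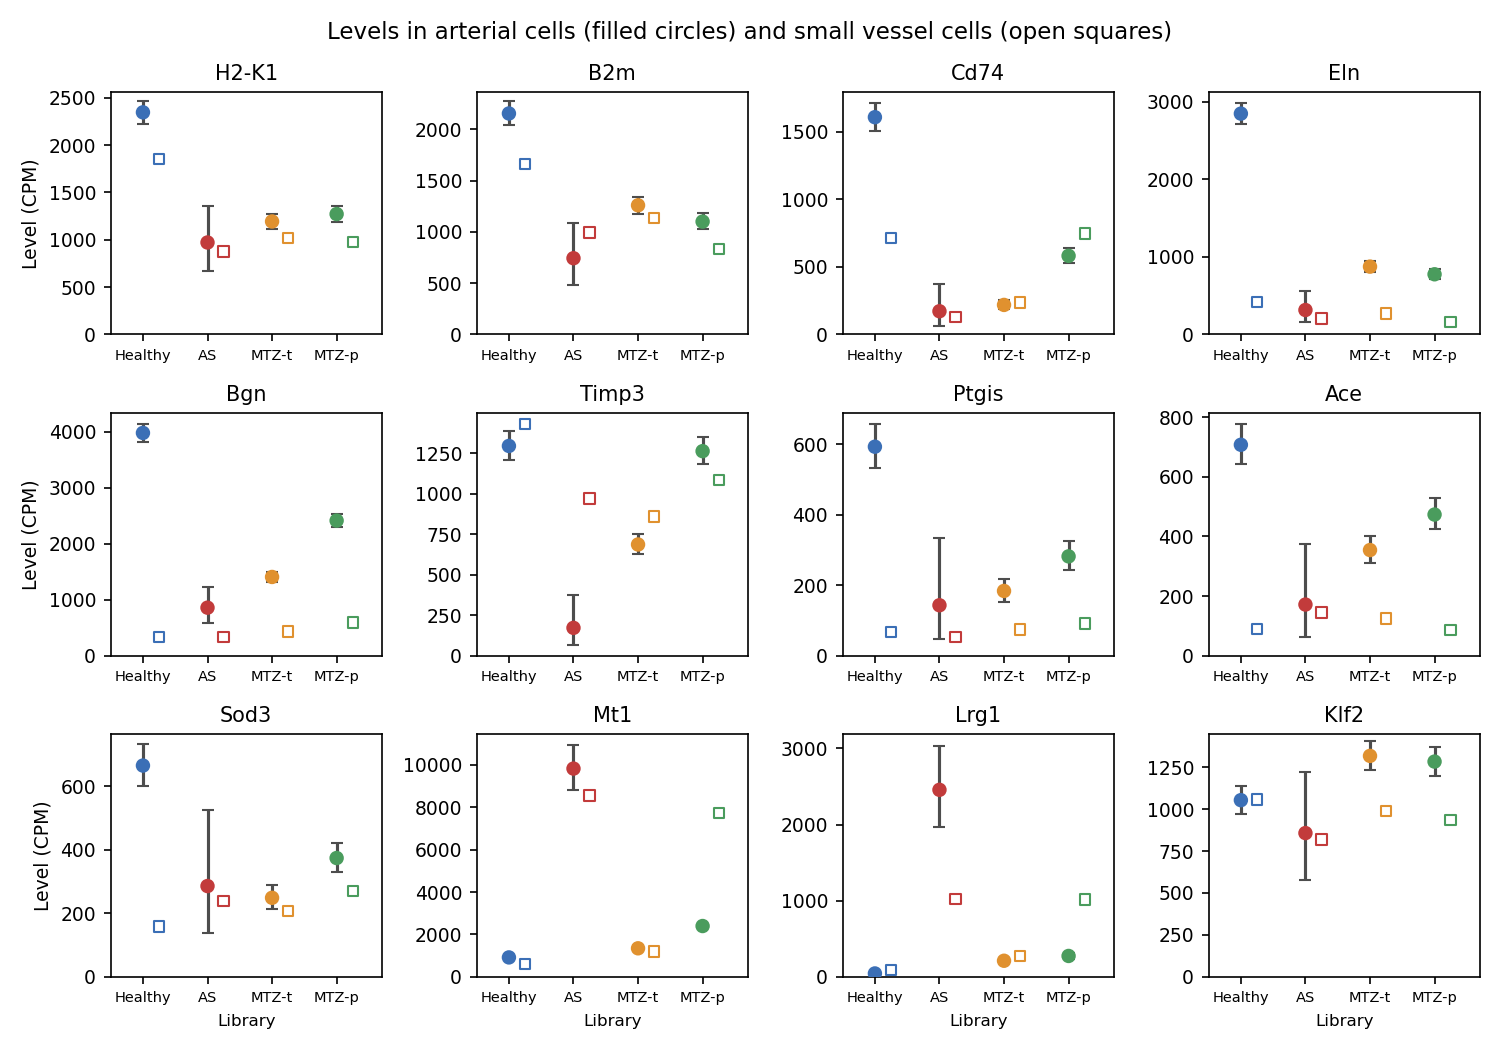
Levels (CPM, y axes from 0) of 12 genes in arterial cells (filled circles) and small vessel cells (open squares) of the 4 libraries, with exact Poisson intervals on the circles; MTZ-t and MTZ-p stand for MTZ-treated and MTZ-preventive. H2-K1, B2m, Eln, Ptgis, Ace and Sod3 are highest in arterial cells of the Healthy-labelled library, Mt1 and Lrg1 in AS, and the small vessel cells of MTZ-preventive have more Mt1 and Lrg1 than its arterial cells, as they have of Cfd and Hp, which are not drawn.

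Cells of 1 library differed in how evenly they held each gene. The spread over cells was measured by the Fano factor (variance over mean, 1 for counts spread at random) after thinning, in the 3 libraries with at least 50 arterial cells. Its median over 1337 genes was 1.04, and 7.7% of the genes had more than 1.5. The 15 most uneven genes were Cfd (16.3), Mgp (5.60), Tagln (5.28), Acta2 (4.98), Col3a1 (4.92), Sfrp4 (4.83), Col1a1 (4.36), Cd74 (4.28), Malat1 (4.17), Fabp4 (4.08), Fos (3.87), Cytl1 (3.87), Ctla2a (3.86), Sfrp1 (3.77) and Mt1 (3.60). Acta2 was found in 55.3% of the thinned cells with Tagln and in 14.8% of those without it in the Healthy-labelled library, in 62.3% and 18.7% in MTZ-treated and in 52.8% and 14.3% in MTZ-preventive. Cytl1 was found in 87.1% of cells with Clu and in 46.7% of those without it in the Healthy-labelled library, in 71.7% and 46.7% in MTZ-treated and in 71.0% and 38.1% in MTZ-preventive. Fabp4 was found in 12 of 12 cells with Cd36 and in 34.7% of the others in the Healthy-labelled library, in 85.7% (57.2 to 98.2) and 53.6% (47.2 to 59.9) in MTZ-treated and in 83.3% (51.6 to 97.9) and 59.2% (52.2 to 65.8) in MTZ-preventive. The intervals of the pair overlap in both libraries with MTZ.

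**Figure D5:**
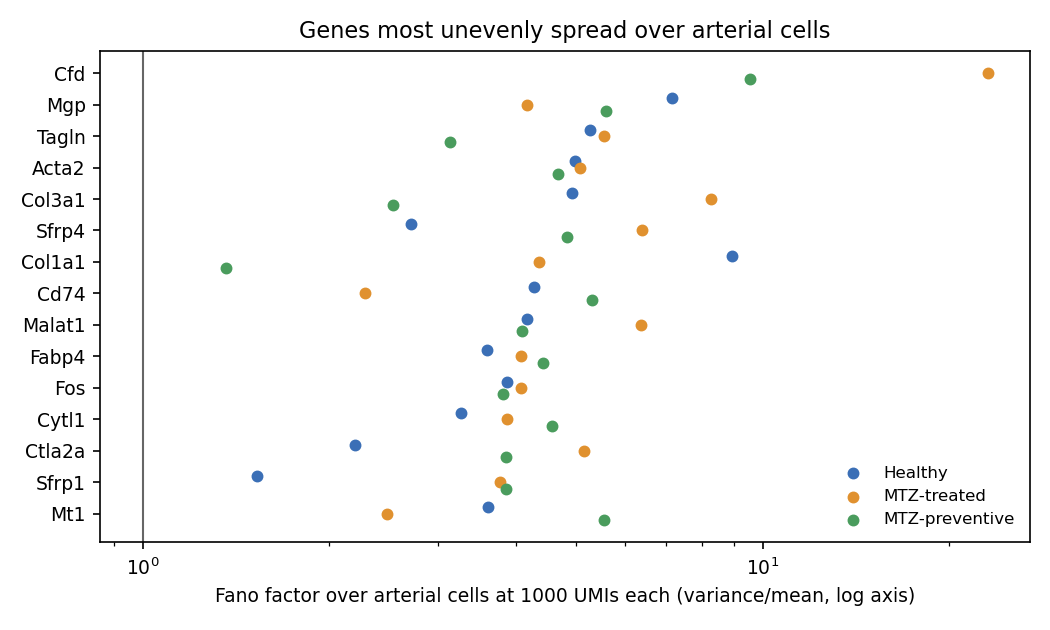
Fano factor over arterial cells thinned to 1000 UMIs (variance over mean, log axis) of the 15 genes with the highest median over the 3 libraries with at least 50 cells; the line at 1 is the value for counts spread at random. Cfd lies highest, at a median of 16.3, with no point for the Healthy-labelled library, where no thinned cell held it.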

How the data were processed

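UMI counts per gene and barcode were used as deposited. They came from droplet single-cell libraries of digested, pooled aortas, and the authors made the counts with Cell Ranger (version 5.0.0 per the file headers, with STAR and mm10 named in the submitters' processing notes). The files list 32245 genes, and genes that share any of 38 duplicated symbols were summed. Companion tables of B and T cell receptor contigs per barcode were read only for which barcodes they name.

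The members and the gene lists were chosen with earlier results of these data known. Barcodes were kept and called arterial by the limits given above, and barcodes with Ptprc or Prox1 were left out of the endothelium. The UMIs of all cells chosen in a library were added up and scaled to counts per 1000000 (CPM) by the total. Ratios of libraries and of cell types were described, with no test, since each condition has 1 library. Genes of the rule, immunoglobulin, T cell receptor, mitochondrial and ribosomal protein genes and unnamed models stayed out of counts of genes. Barcodes with at least 10 of 14 neuronal genes were kept in the shares and left out of levels. The design as first written did not have that step. Keeping them moves the level of the listed genes at 100 CPM or more by over 1.5 times only for Fabp5, Hspd1 and Stmn2 (of 134, in the Healthy-labelled library), Stmn2 (of 125, in MTZ-treated) and Fabp5 (of 139, in MTZ-preventive).

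Genes were named by a rule: the genes of the gates and markers; of each list, up to 6 members of highest mean level or past 2-fold with an interval without 1; the 10 genes highest and 10 lowest in each comparison by the 95% limit nearest 1; the 15 highest against other endothelial cells; the 15 highest Fano factors; and Apoe. Doublets stayed in the main values, and those called from simulated doublets within each library were left out as an alternative. Other alternatives were looser and stricter limits, scaling and minimum levels. The code was tested on simulated counts.

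Python 3.11.15 (pandas 2.3.3, numpy 2.4.6, scikit-learn 1.9.0, scipy 1.17.1, matplotlib 3.10.9) and edgeR 4.0.16 in R 4.3.3 (TMM factors only) were used. Promoters came from RefSeq.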

Additional observations from a re-analysis of the deposited data

How the results depend on the processing

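With 1 library per condition, no replicate could be left out, and no paired analysis was possible because each group has 1 library. Depth limits AS most, where 100 CPM is 3.5 UMIs. Of 54 log2 ratios of named genes, recomputed in 588 values over 11 alternatives, 453 stayed within the interval of counting error, 135 moved outside it and 0 of those whose interval lacked 0 changed sign. The values below lay outside the interval (shares) or moved by over 1.5 times (counts of genes), and the cause was not tested unless given.

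The log2 ratio of the arterial share, AS against the Healthy-labelled library, was −3.47 with at least 3 arterial UMIs (6 cells left in AS), −3.41 without the arterial cells with markers of other cell types (3 cells left in AS) and −0.55 against all kept barcodes. For MTZ-treated against AS it was 3.08 with at least 3 arterial UMIs and 3.19 without the cells with other markers, and for MTZ-preventive against AS it was 2.59 with at least 3 arterial UMIs. The limit on other markers was applied to arterial cells alone, so its shares are no check of the others. It takes out most of them in every library, leaving 56 of 164, 3 of 20, 87 of 265 and 41 of 226.

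Counts of genes 2-fold apart moved with the cells chosen, the scaling and the minimum level. Without called doublets, 247 genes were lower in MTZ-treated than in AS. With at least 3 arterial UMIs, 326 were higher in AS than in the Healthy-labelled library, 214 higher and 277 lower in MTZ-treated than in AS, and 315 lower in MTZ-preventive than in AS. Without cells with other markers, these counts were 946, then 252 and 919, and 258 higher and 921 lower in MTZ-preventive than in AS, with 51 genes lower than in small vessel cells and 37 lower than in venous cells in every library. With the rule applied to thinned cells, they were 350 higher in AS, 318 lower in MTZ-treated and 327 lower in MTZ-preventive than in AS. With the neuronal barcodes kept, 268 were lower in AS than in the Healthy-labelled library. TMM factors gave 77 higher and 318 lower in AS, 347 and 52 in MTZ-treated against AS, and 270 and 55 in MTZ-preventive against AS. A mean of at least 200 CPM, which tests fewer genes, gave 66 and 77, 45 and 40, and 47 and 52, and one of at least 50 CPM gave 573 and 409, 348 and 501, and 384 and 501. Against the Healthy-labelled library, keeping the neuronal barcodes gave 146 genes lower in MTZ-treated and 46 higher and 122 lower in MTZ-preventive. Without cells with other markers 73 genes were higher in MTZ-treated, and 98 higher and 69 lower in MTZ-preventive, and with the rule applied to thinned cells 51 were higher and 49 lower in MTZ-preventive. With the mean over cells, 48 were lower in MTZ-preventive. A mean of at least 200 CPM gave 15 and 30 in MTZ-treated and 13 and 22 in MTZ-preventive, and one of at least 50 CPM gave 78 and 140, and 52 and 71. Between the MTZ libraries these 2 limits gave 7 and 4, and 80 and 43. In the 3 libraries without AS, 55 genes were higher and 28 lower than in venous cells.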

Other observations

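Receptor contigs were a part of the deposited data outside the gene levels. Barcodes with a B cell receptor contig were 5 of the arterial cells of the Healthy-labelled library (3.05%), 6 of those of MTZ-preventive (2.65%) and 0 in the other libraries, and T cell receptor contigs were found in 2 arterial cells (1.22%) of the Healthy-labelled library and in 0 elsewhere. Among all endothelial barcodes the share with a B cell receptor contig was 8.16%, 0.476%, 0.358% and 4.02% in the order Healthy, AS, MTZ-treated and MTZ-preventive, and among all kept barcodes 30%, 1.54%, 1.61% and 10.7%.

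Between 209 and 805 deposited barcodes were shared by any pair of libraries, and 0 of the arterial cells were. Called doublets made up 9.87%, 1.77%, 5.77% and 13.1% of the kept barcodes and were 19, 2, 16 and 53 of the arterial cells.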
